A study of Mus musculus with 6 samples.

Results

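A set of 10 genes of skeletal muscle formation, growth control and wasting was examined in whole skin of mice that lack JunB in the epidermis: Myod1, Myog, Myf5, Myf6, Pax3, Pax7, Mef2c, Mstn, Chrna1 and Fbxo32. They are a list of gene symbols, chosen with earlier results of these data known, and were matched to the 23951 genes of the table, where all 10 were found. Of these, 9 passed the filter used for testing, which asks for 0.1 FPKM or more as the average of the 6 libraries, and Pax7 did not. FPKM is a fragment count divided by the length of the transcript and by the mapped fragments of the library, so levels of different genes can be set side by side.

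The libraries came from 3 control mice (JunB +/+ in the labels) and 3 JunBΔep mice (JunB dep in the labels). All 6 were littermates of the C57Bl/6 strain, aged 6-7 months, and 1 skin library was made per mouse. In JunBΔep mice a floxed Junb allele is deleted by Cre under the keratin 5 promoter, which is active in basal keratinocytes and their descendants, so muscle, nerve and other cells of the skin are not the intended place of deletion. The JunBΔep skin was lesional, and the study included mice of both sexes. Libraries are named by the replicate numbers 0, 1 and 2 of the labels.

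Mouse skin has a sheet of striated muscle beneath the dermis and fat, the panniculus carnosus, and whole skin usually includes it. Myod1, Myf5, Myog and Myf6 encode the basic helix-loop-helix factors that commit cells to the muscle lineage and drive their differentiation. They bind E-boxes, the letters CANNTG, and act together with MEF2 proteins, which bind A/T-rich sites. Pax3 and Pax7 act upstream of them, Pax7 being the defining factor of satellite cells, the stem cells of adult muscle. Myostatin, the product of Mstn, is secreted by muscle and limits its growth. Chrna1 encodes the alpha subunit of the muscle acetylcholine receptor. Fbxo32 encodes atrogin-1, a ubiquitin ligase subunit known for its rise in wasting muscle.

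Promoters of Myog, Mstn and Chrna1 are shown because these 3 genes lie downstream of myogenic factors in the textbook hierarchy and differed in how their levels were spread over the libraries. Each is the 250 bases before the transcription start, from RefSeq on GRCm38.p6, 5′ to 3′ on the strand of the gene. Capitals mark matches to CANNTG and to the MEF2-like letters CTANNNNTA, searched on both strands (the first reads the same on either strand). No 2 marked matches overlap.
Myog, chr1:134289754-134290003, plus strand: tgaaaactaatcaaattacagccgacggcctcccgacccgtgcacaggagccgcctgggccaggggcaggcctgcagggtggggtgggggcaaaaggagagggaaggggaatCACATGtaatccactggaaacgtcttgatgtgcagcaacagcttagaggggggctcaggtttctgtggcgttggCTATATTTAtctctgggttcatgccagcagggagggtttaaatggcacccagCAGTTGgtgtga
Mstn, chr1:53061390-53061639, plus strand: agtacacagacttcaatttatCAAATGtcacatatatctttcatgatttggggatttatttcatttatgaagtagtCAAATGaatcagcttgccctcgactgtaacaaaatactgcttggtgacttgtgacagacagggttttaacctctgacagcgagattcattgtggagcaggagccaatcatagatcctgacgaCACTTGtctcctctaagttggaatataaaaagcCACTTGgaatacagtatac
Chrna1, chr2:73580339-73580588, minus strand: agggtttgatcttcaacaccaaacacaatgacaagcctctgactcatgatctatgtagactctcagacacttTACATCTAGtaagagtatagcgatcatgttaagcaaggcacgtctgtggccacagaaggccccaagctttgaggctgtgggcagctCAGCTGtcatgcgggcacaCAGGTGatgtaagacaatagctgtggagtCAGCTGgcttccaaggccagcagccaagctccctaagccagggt
The Myog window holds 2 E-boxes, CACATG and CAGTTG, which begin 138 and 12 bases before the start, and the MEF2-like word CTATATTTA at 64 bases. The Mstn window holds 4 E-boxes and no MEF2-like word. The Chrna1 window holds 3 E-boxes, at 92, 73 and 44 bases, and the MEF2-like word TACATCTAG at 178 bases. Of 32851 promoter windows of this length, 66.2% hold at least 1 E-box, 31.8% at least 2, 12.2% at least 3 and 3.84% at least 4, and 19% hold a MEF2-like word. Among the other members, Pax7, Myf5 and Mef2c had an entry in the promoter table, and the windows of Pax7 and Myf5 hold no E-box. The letters N can be any base, and those of TACATCTAG include C, so a MEF2-like word need not be A/T-rich. All these matches are descriptions of the letters and not of binding.

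Junb, the deleted gene, was at 59.3, 72.4 and 56.9 FPKM in the controls and reached 129.6, 42.8 and 28.0 FPKM in the JunBΔep-labelled libraries, in the order of replicates 0, 1 and 2 that is kept for all values given here. JunBΔep-labelled replicate 0 was thus above every control, and the directions given here rest on its label. Whole skin also holds cells in which Junb is not deleted, so the check is partial. The same library stood apart in other markers: 7 white adipocyte markers summed to 68.7 FPKM in it, against 1892 to 14979 FPKM in the other 5 libraries, and Krt14 was listed at 0 beside Krt5 at 3725 FPKM. Skeletal muscle fibre was present in all libraries. Its 22 markers, led by Acta1, Tnnt3 and Tnnc2, summed to 27689 to 37419 FPKM in the controls and 2601 to 6239 FPKM in the JunBΔep-labelled libraries, a fold of 8.03 between the means. In bulk skin, fewer muscle cells in the sample and less RNA per muscle cell cannot be told apart, and this holds for each difference described here.

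Of the 9 members tested, 2 fell in the JunBΔep-labelled libraries, Myod1 and Mef2c, at an adjusted p below 0.05 (limma, Benjamini-Hochberg over all 17021 tested genes), and 0 rose. Over all tested genes, 1.38% were called lower and 0% higher. In 6 of the 9 the groups did not overlap, each lower in the JunBΔep-labelled libraries, against 9.16% of all tested genes in that direction. No tested member was higher without overlap, where the share over all tested genes was 5.62%. Without JunBΔep-labelled replicate 0 the called member was Mef2c alone, and without any 1 of the controls or JunBΔep-labelled replicate 1 the count was 0, as it was for all genes. The sample titles fall in 2 number series, which both groups share, and with that series as a block the count was also 0 for members and for all genes (log2 fold change -2.49 for Myod1 and -2.12 for Mef2c, limma adjusted p = 0.0661 for both). At an unadjusted p below 0.05 there were 6 members, all lower, and 243 higher and 1044 lower genes in the whole table. The median log2 fold change was -1.49 over the 9 members and 0.03 over all tested genes.

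**Figure D1:**
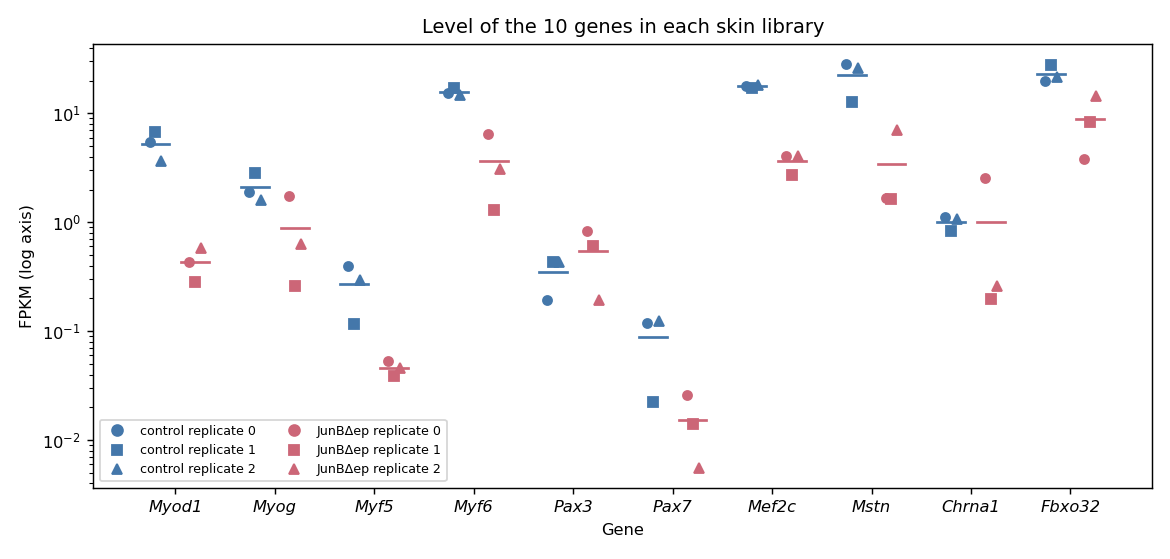
FPKM (log axis) of the 10 genes in each of the 6 skin libraries, with control mice in blue, JunBΔep mice in red, a symbol per replicate number and a bar at the group mean. Myod1, Myf5, Myf6, Mef2c, Mstn and Fbxo32 show no overlap between groups, while JunBΔep-labelled replicate 0 has the highest Chrna1 value, 2.55 FPKM.

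Myod1, the factor that can by itself turn other cells into muscle, had the greatest fold between group means. It was at 5.44, 6.68 and 3.63 FPKM in the controls and at 0.434, 0.283 and 0.580 FPKM in the JunBΔep-labelled libraries. Every control lay above every JunBΔep-labelled library, and the ratio of the means was 12.1. On the log2(FPKM + 0.5) scale the fold change was -2.60 (standard error, SE, 0.29; limma adjusted p = 0.0204). This scale understates the change of low genes. Myod1 has 1 coding transcript, on chromosome 7 from 53631844 to 53634462 (mm9, plus strand, 3 exons), and its FPKM values are whole multiples of the value of 1 fragment. By that step they stand for 438, 514 and 318 fragments in controls and 36, 26 and 45 fragments in the JunBΔep-labelled libraries. The fall was not called without any of the 3 controls, without JunBΔep-labelled replicate 0 or without replicate 1, at adjusted p values of 0.0510 to 0.122 from limma, and was called without replicate 2.

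Myf6, or MRF4, the member of the family that is most abundant in mature fibres, was at 15.5, 17.2 and 14.8 FPKM in controls and at 6.43, 1.31 and 3.12 FPKM in the JunBΔep-labelled libraries. The control values spanned a factor of 1.17 and those of the other group a factor of 4.92, without overlap between the groups. The log2 fold change was -2.19 (SE 0.48, limma adjusted p = 0.155), so Myf6 did not pass the test although it was lower in 3 of 3 libraries. Without JunBΔep-labelled replicate 0, the highest of its group, it was -2.67 (limma adjusted p = 0.0510). Myf6 (chromosome 10, 106929916 to 106931785) and Myf5 (chromosome 10, 106919964 to 106923190) lie 6725 bases apart on the minus strand of mm9.

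Myf5, the earliest factor of the family in the embryo, was low in adult skin. It was at 0.398, 0.116 and 0.294 FPKM in controls and at 0.0537, 0.0387 and 0.0459 FPKM in the JunBΔep-labelled libraries. These values stand for 36, 10 and 29 fragments against 5, 4 and 4. Summed by group this is 75 fragments (95% exact Poisson interval 59.0 to 94.0) against 13 (6.92 to 22.2), an interval that covers counting error only. The groups did not overlap, and the ratio of the means was 5.84. The log2 fold change was -0.48 (SE 0.19, limma adjusted p = 0.621). All values of Myf5 lie below the 0.5 FPKM added before taking logs, which flattens the change. It was -1.26 with 0.1 FPKM added and -2.38 with nothing added.

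Myog, the factor of terminal differentiation, followed a different course over the libraries. It was at 1.90, 2.85 and 1.61 FPKM in controls, and at 1.75 FPKM in JunBΔep-labelled replicate 0, inside the control range. Replicates 1 and 2 of that group were at 0.259 and 0.629 FPKM, below every control. By fragments this is 122, 175 and 113 in controls and 116, 19 and 39 in the JunBΔep-labelled libraries. The groups overlapped through 1 library, and the log2 fold change was -1.05 (SE 0.44, limma adjusted p = 0.677). Without that library it was -1.47 (limma adjusted p = 0.186). Myog lies on chromosome 1 from 136186581 to 136189124 (mm9, plus strand).

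The 4 factors together summed to 23.2, 26.9 and 20.3 FPKM in the controls and to 8.67, 1.89 and 4.37 FPKM in the JunBΔep-labelled libraries. Their proportions were also compared. Myf6 took the most of the sum in every library, 67.8% ± 4.44 (SD, n = 3 controls) and 71.6% ± 2.46 (SD, n = 3), and the groups overlapped (exact two-sided permutation test, p = 0.3). Myod1 took 23.4%, 24.9% and 17.9% in controls and 5.01%, 15.0% and 13.3% in the JunBΔep-labelled libraries, with no overlap. Myog took 8.18%, 10.6% and 7.95% in controls and 20.2%, 13.7% and 14.4% in the other group, again with no overlap. Both gave p = 0.1 in the exact permutation test, the smallest p that 3 libraries against 3 allow, so neither can pass 0.05. The share of Myf5 was 1.20% ± 0.678 (SD, n = 3) and 1.24% ± 0.734 (SD, n = 3). Shares of 1 sum are not independent of each other.

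Pax3, which specifies muscle progenitors and also melanocyte precursors in the embryo, was the only member with a positive log2 fold change. It was at 0.194, 0.429 and 0.435 FPKM in controls and at 0.835, 0.609 and 0.193 FPKM in the JunBΔep-labelled libraries. Replicates 0 and 1 of the latter lay above every control, and replicate 2 was next to the lowest control. The log2 fold change was 0.26 (SE 0.30, limma adjusted p = 0.774) and, without replicate 0 of that group, 0.053, or 0.53 without replicate 2. The 10 melanocyte markers, led by Dct, had 0 genes called, with a sum of 23.9 to 106 FPKM in the controls and of 19.8, 141 and 41.9 FPKM in the JunBΔep-labelled libraries. Among these markers only Oca2 was listed at 0, in 2 control libraries. The part of melanocytes in the Pax3 level was not tested. Pax3 spans chromosome 1 from 78097842 to 78193709 (mm9, minus strand).

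Pax7 was near the floor of the table, at 0.118, 0.0225 and 0.124 FPKM in controls and at 0.0261, 0.0141 and 0.00559 FPKM in the JunBΔep-labelled libraries. Its mean of 0.0518 FPKM over 6 libraries was below the filter, and it was not tested. Control replicate 1 lay among the JunBΔep-labelled libraries. The lowest whole numbers with the ratios of these values are 22, 4 and 25 fragments against 5, 3 and 1, so the level in the last library may rest on 1 fragment. Pax7 spans chromosome 4 from 139292977 to 139389445 (mm9, minus strand).

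Mef2c, a MADS-box partner of the myogenic factors that is also used in other cell types, varied least of the members among the controls. It was at 17.7, 17.1 and 18.2 FPKM in controls and at 4.08, 2.74 and 4.07 FPKM in the JunBΔep-labelled libraries. The groups were far apart, with a ratio of the means of 4.87 and a factor of 1.06 between the highest and the lowest control. The log2 fold change was -2.16 (SE 0.21, limma adjusted p = 0.0181). Mef2c was also called without JunBΔep-labelled replicate 0 and without replicate 2, but not without any 1 of the controls or without replicate 1, at adjusted p values of 0.0599 to 0.121 from limma. It spans chromosome 13 from 83643033 to 83806684 (mm9, plus strand) and has 5 coding transcripts, which the table does not separate.

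Mstn was at 28.3, 12.8 and 25.9 FPKM in controls and at 1.68, 1.63 and 7.07 FPKM in the JunBΔep-labelled libraries. The groups did not overlap, and the ratio of the means was 6.45. The highest value was 4.34 times the lowest among the JunBΔep-labelled libraries and 2.22 times among the controls. The log2 fold change, -2.72, was the lowest of the 9 members on the log2(FPKM + 0.5) scale. Its standard error was 0.59 and its adjusted p 0.142 from limma. This rank depends on the 0.5 added. With 0.1 added, Myod1 was lower, at -3.33 against -2.92 for Mstn, and with nothing added at -3.62 against -2.97. Without JunBΔep-labelled replicate 2 the log2 fold change of Mstn was -3.32 and passed the test (limma adjusted p = 0.0321), and without replicate 0 it was -2.43 (limma adjusted p = 0.331). Mstn lies on chromosome 1 from 53118507 to 53124923 (mm9, plus strand).

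Chrna1 had the same mean in both groups, 1.01 FPKM in controls and 1.00 FPKM in the JunBΔep-labelled libraries, and no library of the latter was near that mean. It was at 1.12, 0.831 and 1.07 FPKM in controls and at 2.55, 0.196 and 0.260 FPKM in the JunBΔep-labelled libraries. The first of these exceeded every control and the others were below every control, a factor of 13.0 between the highest and the lowest. The log2 fold change was -0.36 (SE 0.59, limma adjusted p = 0.835) and, without replicate 0, -1.05 (limma adjusted p = 0.113). Chrna1 spans chromosome 2 from 73401272 to 73418395 (mm9, minus strand).

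Fbxo32 had the highest mean of the members in either group, though Mstn was above it in 2 of the 3 controls, and Myf6 and Mef2c were above it in JunBΔep-labelled replicate 0. It was at 19.7, 28.0 and 21.7 FPKM in controls and at 3.81, 8.33 and 14.6 FPKM in the JunBΔep-labelled libraries. The groups did not overlap, but replicate 2 kept 63.1% of the control mean while replicate 0 kept 16.5%. The log2 fold change was -1.49 (SE 0.46, limma adjusted p = 0.411) and, without replicate 0, -1.02 (limma adjusted p = 0.389). Fbxo32 spans chromosome 15 from 58011634 to 58046433 (mm9, minus strand), where a long noncoding RNA gene, Gm15943, overlaps it on the other strand. The libraries keep strand, but the sources used here do not say whether the counting used it.

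**Figure D2:**
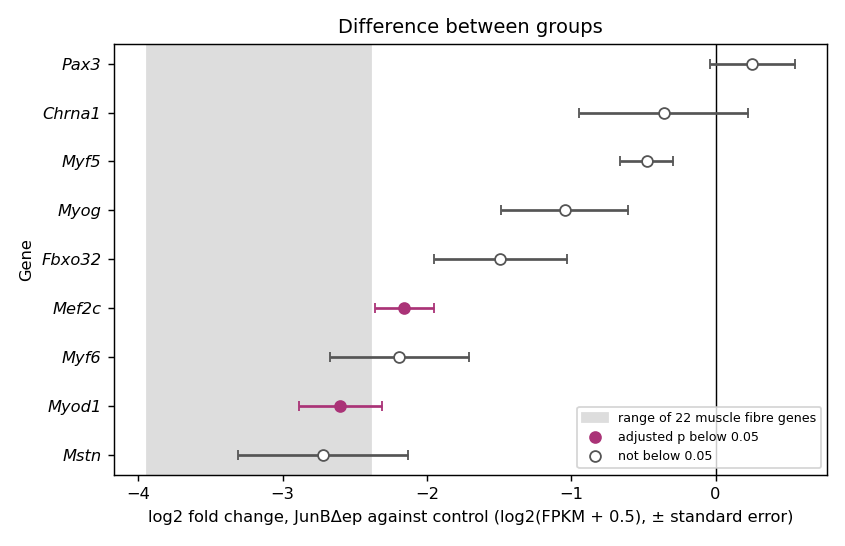
Log2 fold change of the 9 tested genes (points, with bars for the standard error from limma), on the log2(FPKM + 0.5) scale, with filled points for an adjusted p below 0.05 and a grey band for the range of 22 muscle fibre genes. Myod1 at -2.60 and Mstn at -2.72 lie inside the band of -3.94 to -2.39, and Pax3 lies at 0.26.

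In order of mean level, the controls ran Fbxo32 (23.1 FPKM), Mstn (22.3), Mef2c (17.7), Myf6 (15.8), Myod1 (5.25), Myog (2.12), Chrna1 (1.01), Pax3 (0.353), Myf5 (0.269) and Pax7 (0.0882). The ranges of each neighbouring pair from Fbxo32 to Myf6 overlapped, as did those from Pax3 to Pax7, and the steps from Myf6 to Myod1, Myog, Chrna1 and Pax3 were larger than the spread. In the JunBΔep-labelled libraries the order was Fbxo32 (8.90 FPKM), Mef2c (3.63), Myf6 (3.62), Mstn (3.46), Chrna1 (1.00), Myog (0.880), Pax3 (0.545), Myod1 (0.432), Myf5 (0.0461) and Pax7 (0.0153). Each neighbouring pair from Fbxo32 to Myod1 overlapped in range in that group, and Myf5 and Pax7 lay below without overlap. By these means Myod1 was in the fifth place in the controls and in the eighth in the other group. Its place behind Chrna1 rests on JunBΔep-labelled replicate 0, since Myod1 was above Chrna1 in replicates 1 and 2 of that group, and above Myog in replicate 1.

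Each member was next set against the muscle fibre genes of its own library. The 22 fibre genes were all lower in the JunBΔep-labelled libraries without overlap, with 16 called and a median log2 fold change of -3.08. The count called was 4 without JunBΔep-labelled replicate 0, 0 without any 1 of the controls or without replicate 1, 8 without the filter on low values and 0 with the number series as a block. A member that is lower by the same factor has an unchanged ratio to them. The mean log2 value of the fibre genes differed by -3.09 between the groups, and the median tested gene by 0.03. A gene of any kind that hardly changes is thus also higher by this ratio. The share of all tested genes that is higher by it was not determined, so the counts below have no background beside them. The ratio was first taken with the pseudocount of 0.5. It was higher in the JunBΔep-labelled libraries without overlap for 8 of the 10 members, the exceptions being Myod1 (0.49 on the log2 scale, exact permutation p = 0.3) and Mstn (0.37, exact permutation p = 0.6). With the median of the fibre genes in place of their mean, Mstn too was higher without overlap (0.71, exact permutation p = 0.1), which made 9 of 10. For the 8, p was 0.1 in the exact permutation test, unadjusted and the smallest possible. The pseudocount is close to or above the level of several members and lifts their ratios, so the ratio was also taken without it, an alternative added after the values were seen, in which 5 of 10 were higher without overlap.

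Without the pseudocount, the ratio of Fbxo32 to the fibre genes was higher by 1.57 on the log2 scale in the JunBΔep-labelled libraries, with every one of these above every control. Mef2c was higher by 0.83, Myog by 1.49, Chrna1 by 2.15 and Pax3 by 3.61, each without overlap and each at the smallest p of 0.1 (exact permutation test, unadjusted). JunBΔep-labelled replicate 0 carried much of this for Chrna1 and Myog, whose differences were 0.77 and 0.57 without it, while that of Fbxo32 was 1.87 without it and that of Mef2c 0.52. Myod1 was lower by this measure, -0.48 (exact permutation p = 0.2), against 0.49 with the pseudocount, and its groups overlapped in both. The ratio of Mstn differed by 0.16 (p = 0.8, exact permutation test) with overlapping groups. For Myf6 the ratio was -4.95, -4.99 and -4.98 in controls and -5.04 and -5.00 in JunBΔep-labelled replicates 1 and 2, a near equality that JunBΔep-labelled replicate 0 left, at -2.71. Myf5 (0.75) and Pax7 (0.69) overlapped between groups.

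**Figure D3:**
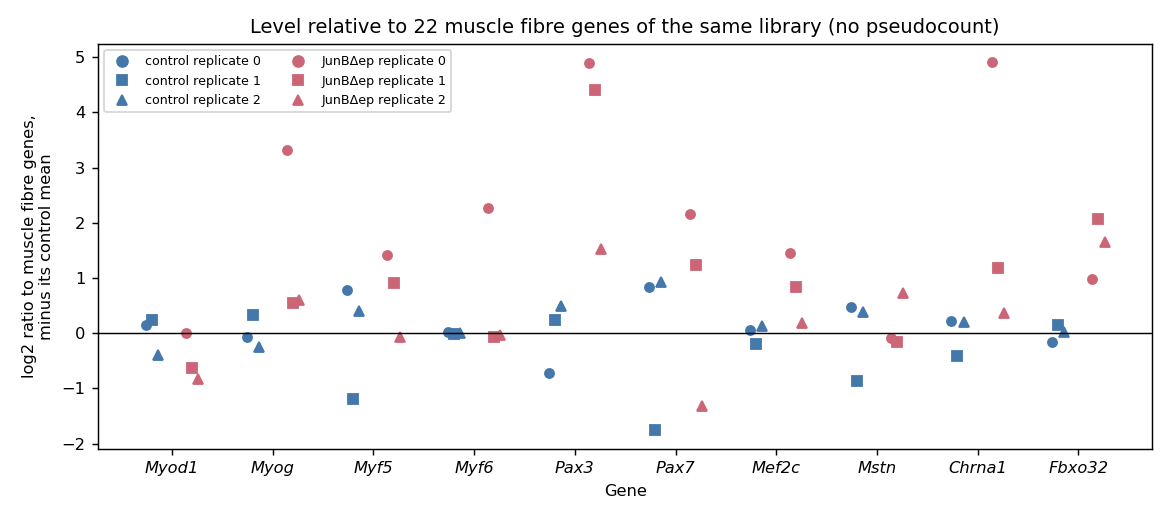
Log2 ratio of each gene's FPKM to the mean of 22 muscle fibre genes in the same library, without a pseudocount and minus its control mean, for 3 control libraries (blue) and 3 JunBΔep libraries (red). Fbxo32 and Mef2c lie above the controls in all 3 red points, Myf6 lies at the controls in 2 of them, and Chrna1 and Myog are highest in replicate 0.

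The remaining genes of these pathways were followed in 6 lists. The other muscle transcription factors, 28 genes tested, had 0 called and a median log2 fold change of -0.40, and 13 were lower without overlap, 0 higher, where the shares over all tested genes were 9.16% and 5.62%. Eya1, a transcriptional coactivator of muscle development, had the smallest p of the list. It was at 1.86, 1.58 and 2.02 FPKM in the controls and at 0.382, 0.664 and 0.459 FPKM in the JunBΔep-labelled libraries, a log2 fold change of -1.22 (SE 0.21, limma adjusted p = 0.0647).

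The satellite cell list had 16 genes tested, 0 called and a median of -0.15. The groups did not overlap in 3 genes lower and 1 higher, where the shares over all tested genes were 9.16% and 5.62%. Cdh15, or M-cadherin, was at 2.21, 2.95 and 2.23 FPKM in controls and at 1.16, 0.241 and 0.378 FPKM in the JunBΔep-labelled libraries (log2 fold change -1.52, limma adjusted p = 0.175), and Chrdl2 had -0.91 (limma adjusted p = 0.0725). Many genes of this list are used by other skin cells as well. The list of myoblast fusion and embryonic myosin genes had 9 tested, 0 called and a median of -0.16, with 1 gene lower and 1 higher without overlap. Myh8, the perinatal myosin heavy chain, had a log2 fold change of -0.70 (limma adjusted p = 0.161) and Cdh2, or N-cadherin, -0.61 (limma adjusted p = 0.719).

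Around Mstn, the list of myostatin and activin ligands, receptors, inhibitors, proteases and SMADs had 25 genes tested, 0 called and a median of 0.04, which is close to the 0.03 of all tested genes. The groups did not overlap in 1 gene lower and 1 higher of the 25, below those same shares. Wfikkn2, a secreted inhibitor of myostatin, was at 1.46, 1.12 and 1.14 FPKM in controls and at 0.283, 0.333 and 0.598 FPKM in the JunBΔep-labelled libraries (log2 fold change -0.95, SE 0.22, limma adjusted p = 0.166). Dcn, which encodes decorin, had -0.81 (limma adjusted p = 0.720). Named after their values were seen, the activin receptor gene Acvr2b had 0.04, the inhibitor Fst, or follistatin, 0.13 and the related ligand Gdf11 -0.35, all with overlapping groups.

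Around Chrna1, the neuromuscular junction list had 15 genes tested, 3 called lower, 0 called higher and a median of -0.77, where 1.38% and 0% of all tested genes were called. The groups did not overlap in 7 genes lower and 0 higher, where the shares over all tested genes were 9.16% and 5.62%. The 3 that fell were Scn4a, the sodium channel of the muscle membrane, Rapsn, which clusters the receptor, and Chrne, its adult epsilon subunit. Chrne was at 1.89, 1.77 and 1.86 FPKM in controls and at 0.337, 0.0760 and 0.210 FPKM in the JunBΔep-labelled libraries, a log2 fold change of -1.74 (SE 0.21, limma adjusted p = 0.0222). Rapsn had -2.19 (limma adjusted p = 0.0269) and Scn4a -2.65 (limma adjusted p = 0.0222). Of 4 tested motor nerve markers, 1 was called lower, Isl1 (-1.67 on the log2 scale, limma adjusted p = 0.0343). This list summed to 4.11 to 5.54 FPKM in the controls and 0.923 to 2.26 FPKM in the JunBΔep-labelled libraries, with Mnx1 listed at 0 in all 6 libraries. The part of nerve in these levels was not tested.

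Other junction and early muscle genes that, like Chrna1, had a higher value in JunBΔep-labelled replicate 0 than in replicates 1 and 2 are given here as values; they were picked after their values were seen, and most are near the floor of the table. Chrng, the fetal gamma subunit, was at 0.0359, 0 and 0.0110 FPKM in controls, and at 0.221, 0.0105 and 0 FPKM in the JunBΔep-labelled libraries. Tmem8c, or myomaker, which fuses myoblasts, was at 0.377 FPKM in replicate 0 of that group and at most 0.0398 FPKM in the other 5 libraries. Myh3, the embryonic myosin heavy chain, was at 0.213 FPKM in the same library, but control replicate 1 was at 0.205 FPKM. Chrnd, the delta subunit, was at 0.460 FPKM there, inside the control range of 0.268 to 0.559, and at 0.0204 and 0 FPKM in replicates 1 and 2. In the same library Chrne was at 0.337 FPKM, below every control, and Chrnb1, the beta subunit, was at 4.98 FPKM beside 2.02 and 4.93 FPKM in replicates 1 and 2, so the subunits did not share 1 course. With 1 library of this kind no test of the pattern was made.

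**Figure D4:**
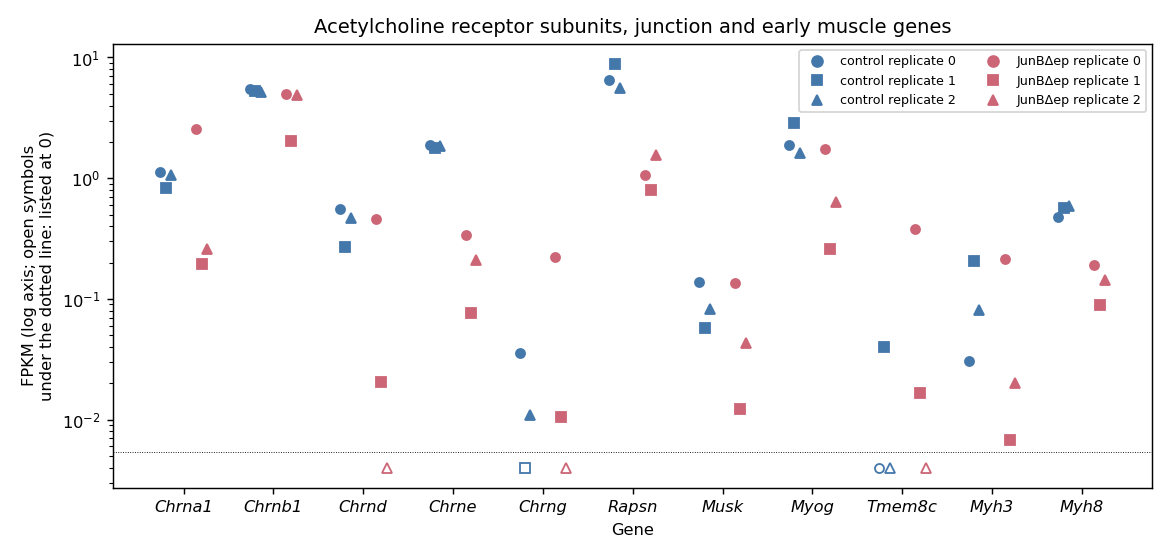
FPKM (log axis) of acetylcholine receptor subunits, junction genes and early muscle genes in the 3 control libraries (blue) and 3 JunBΔep libraries (red), with open symbols under the dotted line for values listed at 0. Replicate 0 of the JunBΔep libraries is highest of all 6 for Chrna1 (2.55), Chrng (0.221), Tmem8c (0.377) and Myh3 (0.213), and low with its group for Chrne and Rapsn.

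Around Fbxo32, the list of atrophy and protein breakdown genes had 37 tested, 3 called lower, 0 called higher and a median of 0.04, beside the same 1.38% and 0% over all tested genes. The groups did not overlap in 7 genes lower and 2 higher, beside 9.16% and 5.62%. The 3 that fell were the muscle RING finger genes Trim63, or MuRF1, the ubiquitin ligase usually measured beside atrogin-1, and its relatives Trim55 and Trim54. Trim63 was at 22.9, 38.3 and 25.2 FPKM in controls and at 6.19, 5.71 and 9.90 FPKM in the JunBΔep-labelled libraries, with a log2 fold change of -1.92 (SE 0.29, limma adjusted p = 0.0453). Trim55 had -2.36 (limma adjusted p = 0.0269) and Trim54 -2.97 (limma adjusted p = 0.0216). These 3 are made in striated muscle, whereas most genes of the list are made in many cell types. Of the 6 calls in the junction and atrophy lists, Chrne alone remained without JunBΔep-labelled replicate 0, all but Chrne remained without replicate 2, and 0 remained without any 1 of the controls or without JunBΔep-labelled replicate 1, or with the number series as a block. The calls of Rapsn, Trim63 and Trim55 were also lost without the filter on low values, that of Trim63 with all libraries rescaled to the same sum, and that of Chrne with a filter at a mean of 1 FPKM.

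**Figure D5:**
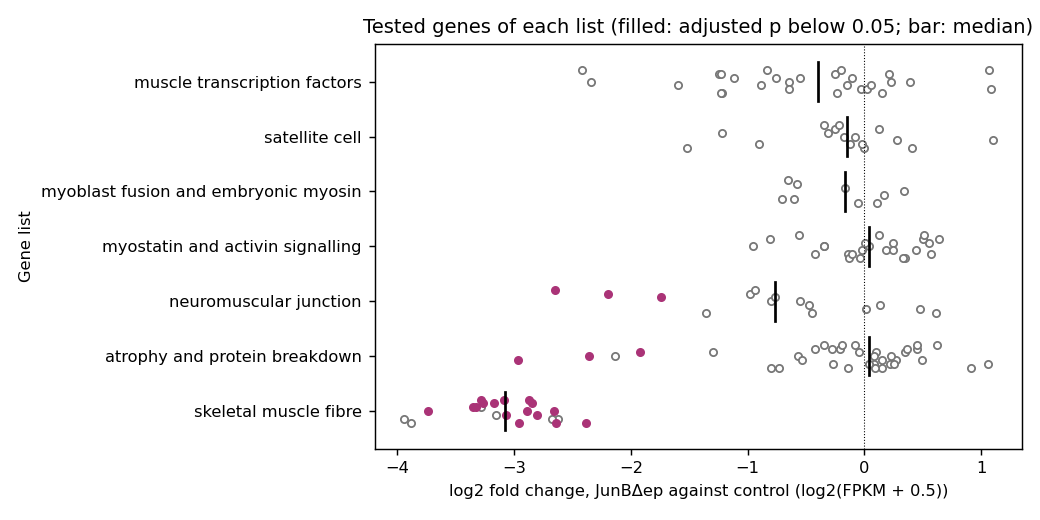
Log2 fold change of each tested gene in the 6 pathway lists and the muscle fibre list (1 circle per gene, on the log2(FPKM + 0.5) scale), with filled circles for an adjusted p below 0.05 from limma and a bar at the median. The fibre genes lie between -3.94 and -2.39, and the called genes of the pathway lists are 3 junction genes and 3 atrophy genes, all lower.

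Each tested member was also matched to the genes outside the 10 whose centred log2 values ran closest to it over the 6 libraries, measured by the root mean square difference. For Myod1 these were Smtnl2 (0.15), Tpm2 (0.18) and Nctc1 (0.19), and for Mef2c they were Kcnc1 (0.09), Fhl3 (0.10) and Cacna2d1 (0.13). Myf6 was nearest to Klhl40 (0.10), Dtna (0.12) and Cacng1 (0.16), which also had their highest JunBΔep value in replicate 0. Fbxo32 was nearest to 0610009L18Rik (0.09), Mlycd (0.13) and B230118H07Rik (0.14), and Mlycd, like Fbxo32, was lowest in JunBΔep-labelled replicate 0 (4.57 FPKM) and had no overlap between groups. Mstn had no close match, with Tmod1 at 0.27, Camk2a at 0.33 and 2310065F04Rik at 0.34. For Chrna1 the nearest were Grip2 (0.16), Angptl1 (0.16) and Ddah1 (0.17), of which Angptl1 stood at 5.09, 0.451 and 0.523 FPKM in the JunBΔep-labelled libraries. Myog was nearest to Gm20594 (0.17), Tmem37 (0.18) and Gapdh (0.18). The lowest members, whose values vary little on this scale, were nearest to Acnat1, 6030407O03Rik and Tmprss11f (Myf5, 0.06 each) and to Rwdd2b, Pgam5 and Gm11110 (Pax3, 0.06 each).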

How the data were processed

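Poly(A) RNA of whole skin from 6 mice was sequenced with a kit that keeps strand. The authors aligned the reads to mm9 and deposited FPKM values per gene and mouse, which were used as deposited. The submitters' processing notes list TopHat2 2.0.10, Bowtie 1.0.0, SAMtools 0.1.19, FastQC and Cufflinks, with no role given. The authors' own comparison used DESeq2 on read counts, and those counts were not used. No column of per-mouse values was left unused (0).

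Values were taken to log2(FPKM + 0.5) and fitted with limma 3.58.1 in R 4.3.3 (intensity trend, genotype only, two-sided, Benjamini-Hochberg over the 17021 genes that averaged 0.1 FPKM or more). Tables and figures used Python 3.11.15, pandas 2.3.3 and matplotlib 3.10.9. The procedure was tested on simulated data. Among low genes with 1 transcript, 79.5% to 84.5% of the values lay within 0.1 of a whole multiple of 1 step, which put the scaling total at 4.15e+07 to 4.96e+07 fragments per library, if the values were not rescaled. Fragment numbers are given where that step, with transcript lengths of GENCODE vM1 on mm9 (for Pax7 a shorter length), made all 6 values whole to within 0.05. Counting intervals cover counting error only. Positions are from the same annotation. Sequences are from RefSeq on GRCm38.p6, where 6 of the 10 genes had an entry.

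Each mouse was 1 replicate. Same-numbered mice did not deviate together (r of 0.12, -0.23 and -0.43 for numbers 0, 1 and 2), so the number was not used as a block. The members and gene lists were chosen with earlier results of these data known. The genes named were all 10 members, Junb, per pathway list the called genes (up to 5) or otherwise the 2 with the smallest p, the 3 highest fibre genes, the highest gene of each other marker list and the 3 nearest patterns per tested member; any other gene is said to have been chosen after its values were seen, and Krt5, Krt14, Oca2 and Mnx1 were also named after theirs were seen. Gene lists were Schwann cell, endothelium, smooth muscle and pericyte, dermal fibroblast, white adipocyte, interfollicular keratinocyte, melanocyte and motor nerve markers, the fibre list and the 6 pathway lists. A gene that this rule names is not reported here. Alternatives were other pseudocounts, filters, scalings and limma settings, blocks and leaving out each mouse.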

Additional observations from a re-analysis of the deposited data

How the results depend on the processing

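The fold changes of the members, Pax7 included where no filter was set, kept their sign in 151 of 152 values under the alternatives. The other was Chrna1, at 0.017 without JunBΔep replicate 1 (range -1.05 to 0.017 over the mice left out). The filters, the limma settings and the replicate block leave these fold changes as they are. Their values in this count could not change sign and say nothing about it. Myod1 and Mef2c stayed the called members, 2 in number, under other pseudocounts, filters, scalings and limma settings. With mice left out in turn, the genes called ranged from 0 to 254, the members called from 0 to 3, the pathway genes called from 0 to 7 (6 as reported), and the members higher relative to fibre genes without overlap from 8 to 9. The fibre genes called, 16 as reported, ranged from 0 to 19 and were 0 under either block and 8 without the filter. The 235 genes called became 0 without any of the controls or without JunBΔep replicate 1, and 135 without JunBΔep replicate 0, with 1 member (Mef2c), 2 pathway genes (Cdh15 and Chrne) and 10 genes called higher. Without JunBΔep replicate 2 Mstn joined Myod1 and Mef2c. With 2 mice in a group, the fit has fewer residual degrees of freedom. The replicate block, whose numbers do not pair the mice, gave 0 genes, 0 members and 0 pathway genes called, with adjusted p values of 0.175 for Myod1 and 0.145 for Mef2c from limma. A block on the number series of the sample titles also gave 0 genes, 0 members and 0 pathway genes, with 0.0661 for both. Without a pseudocount 5 members were higher relative to fibre genes, and Myod1 was at -0.48 (-0.20 at a pseudocount of 0.1). Mstn relative to fibre genes ranged from -0.058 (without control replicate 1) to 0.60 (without control replicate 0) over the mice left out, and was 0.71 against the median of the fibre genes, which made 9 members higher. The cause of these changes was not tested. Depth limits Myf5 and Pax7, which rest on few fragments.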

Other observations

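Markers of other cell types of the skin gave these values. Of 8 Schwann cell markers, led by Pmp22, 0 were called and the sum was 168 to 299 FPKM in the controls and 83.8 to 276 FPKM in the JunBΔep-labelled libraries. Of 8 endothelial markers, led by Pecam1, 0 were called, with sums of 63.0 to 85.9 and 34.6 to 130 FPKM (129.7 in replicate 2). Of 7 dermal fibroblast markers, led by Col3a1, 0 were called, with sums of 668 to 1903 and 547 to 1180 FPKM. Of 8 interfollicular keratinocyte markers, led by Krt10, 0 were called, with sums of 7059 to 11410 and 7190 to 12751 FPKM. Of 7 white adipocyte markers, led by Fabp4, 0 were called. Of 8 smooth muscle and pericyte markers 0 were called, and the sums of 510 to 666 and 183 to 304 FPKM did not overlap. They were led by Des, which muscle fibres also make and which had 401 ± 54.0 FPKM (SD) in the 3 controls and 75.7 ± 36.3 FPKM (SD) in the JunBΔep-labelled libraries (adjusted p = 0.0551 from limma). The gap between the sums rests mainly on Des. Of the 8 markers, 2 did not overlap between the groups, Des among them.

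The share of the control mean that each JunBΔep-labelled library kept differed between members. In replicate 0 it ran from 7.54% for Mstn and 8.27% for Myod1 to 252% for Chrna1, in replicate 1 from 5.39% for Myod1 to 173% for Pax3, and in replicate 2 from 6.33% for Pax7 and 11.0% for Myod1 to 63.1% for Fbxo32.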
